A study of Mus musculus with 24 samples.

Results

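In total, 10 genes of the liver X receptor (LXR) pathway and of sterol efflux were followed across liver RNA-Seq libraries of lipodystrophic and control mice. They are Nr1h2, Nr1h3, Abca1, Abcg1, Abcg5, Abcg8, Mylip, Scarb1, Lpcat3, and Pltp. They were chosen by symbol, and all 10 were found among the 23972 genes of the count table. The 24 libraries came from livers of female mice, in 4 groups. Of the controls, 7 had received vehicle and 3 FGF21, and of the LmnaADKO mice, 6 had received vehicle and 8 FGF21. Both genotypes were Lmna fl/fl, and the LmnaADKO mice carried Adipoq-Cre+ whereas their controls were Adipoq-Cre-. Adipoq-Cre acts in adipocytes and adipogenic progenitors and not in hepatocytes, so that the liver itself keeps Lmna. Mice were 12 to 14 weeks old at the start and ate a high-fat diet at 22°C. An AAV8 vector for FGF21, or vehicle, was injected after 4 weeks of diet, and livers were taken 8 weeks later. The labels call the treated groups Rescue, which was read as FGF21.

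LXRs are nuclear receptors that bind oxysterols and act on DNA as partners of retinoid X receptors. Nr1h3 encodes LXRα, which is abundant in liver, and Nr1h2 encodes LXRβ, which is found in most tissues. When sterols accumulate, LXRs raise the transcription of genes that move cholesterol out of cells, into bile or onto lipoproteins, and of Mylip, which encodes a ubiquitin ligase. In liver, they also drive fatty acid synthesis and phospholipid remodeling.

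Promoter sequences are shown for Abca1, a direct LXR target, and for Abcg5 and Abcg8, which lie head to head at the start sites used here. Sequences are from RefSeq on GRCm38.p6. Windows of 250 bases before and 50 bases after the start site were held for 8 of the 10 genes. In both sequences, letters run 5′ to 3′. The Abca1 sequence is chr4:53159896-53160015 on the minus strand, which ends at the base before the start site. Capitals mark the best match to 2 copies of AGGTCA with 4 bases between them, the arrangement at which LXR and its partner are known to bind. The second sequence is chr17:84683012-84683120 on the plus strand and has no capitals. It holds the 109 bases between a start site of Abcg5 (minus strand, 84683011) and of Abcg8 (plus strand, 84683121). Abcg8 had a window at another start site as well, 84676302, which lies within Abcg5 and begins the annotated gene.
Abca1: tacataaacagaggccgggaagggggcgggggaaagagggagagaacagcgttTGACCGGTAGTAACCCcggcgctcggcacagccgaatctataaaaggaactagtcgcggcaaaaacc
Abcg5 to Abcg8: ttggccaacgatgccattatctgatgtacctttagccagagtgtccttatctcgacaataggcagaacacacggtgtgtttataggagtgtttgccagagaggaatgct

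Both strands of each window were searched. The Abca1 match lies at positions -67 to -52 from the start site, reads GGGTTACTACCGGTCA on the plus strand of the chromosome, and has 9 of the 12 compared letters. Of all 32851 windows, 21.9% held a match of at least 9 letters. The best matches in the Abcg5 and Abcg8 windows had 8 letters, and 76.9% of all windows held at least 8. These matches describe letters and are not evidence of binding.

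The total count per library lay between 19863304 and 21510054. Levels are given in CPM, a gene's count scaled to a common library size after TMM normalization. Counts on Fgf21 did not bear out the reading of the treatment label. Its mean was 4.01 CPM in vehicle-treated controls and 4.78 CPM in FGF21-treated controls. In LmnaADKO mice it was 7.99 CPM with vehicle and 5.36 CPM with FGF21. In plasma, the paper reports a rise of FGF21 protein after transduction, larger in LmnaADKO mice, and more endogenous FGF21 in these mice. Whether reads from the vector count on Fgf21 is not given in the sources used here. Lmna was higher in vehicle-treated LmnaADKO liver by 0.52 on the log2 scale (SE 0.121, edgeR adjusted p = 0.00322), which does not check a deletion in adipocytes. Hepatocyte markers summed to 69820 to 142900 CPM per library, and the 5 adipocyte markers to at most 1.28 CPM. Long genes read lowest relative to short genes in 3 libraries. These were library 7 of FGF21-treated LmnaADKO mice, library 3 of FGF21-treated controls, and library 3 of vehicle-treated controls. Their slopes of log2 CPM on log2 exonic length, against the median of the genotype, were -0.331, -0.2895, and -0.1535. The number 3 was a choice, since library 2 of FGF21-treated LmnaADKO mice came next at -0.1091. Library 1 of FGF21-treated controls (0.1275) and library 6 of vehicle-treated controls (0.1229) lay furthest the other way. Animal numbers had 3 digits in 6 of 7 vehicle-treated controls and 4 digits in 5 of 6 vehicle-treated LmnaADKO mice, so that this number series and genotype could be told apart only in part. The same held for treatment in controls, since all 3 FGF21-treated controls had 4 digits, and with the series as a covariate the genes called for FGF21 against vehicle in controls went from 13 to 0.

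Per kilobase of exonic length, the 10 genes spanned a wide range of levels in liver. In vehicle-treated controls, Nr1h3 was highest at 45.3 ± 4.78 CPM per kb (SD, n = 7), followed by Abcg5, Lpcat3, Abcg8, Scarb1, and Pltp, which was at 25.6 ± 3.76 CPM per kb. The ranges of neighbors among these 6 genes overlapped. Nr1h2 followed at 14.5 ± 0.972 CPM per kb, Abca1 at 8.79 ± 1.43, Mylip at 3.96 ± 0.700, and Abcg1 at 1.74 ± 0.330, and from Pltp downward no neighbors overlapped. Nr1h3 was above Nr1h2 in every library, with a log2 ratio of CPM between 0.84 and 1.44. In vehicle-treated LmnaADKO mice, Lpcat3 led at 39.3 ± 3.31 CPM per kb (n = 6), and in FGF21-treated LmnaADKO mice Pltp led at 47.9 ± 15.8 CPM per kb (n = 8), and in both groups the range of the leading gene overlapped that of the next. Abcg1 was lowest in all 4 groups. The plot of levels per length shows the upper 6 genes crowded together and the lower 4 spread out.

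**Figure D1:**
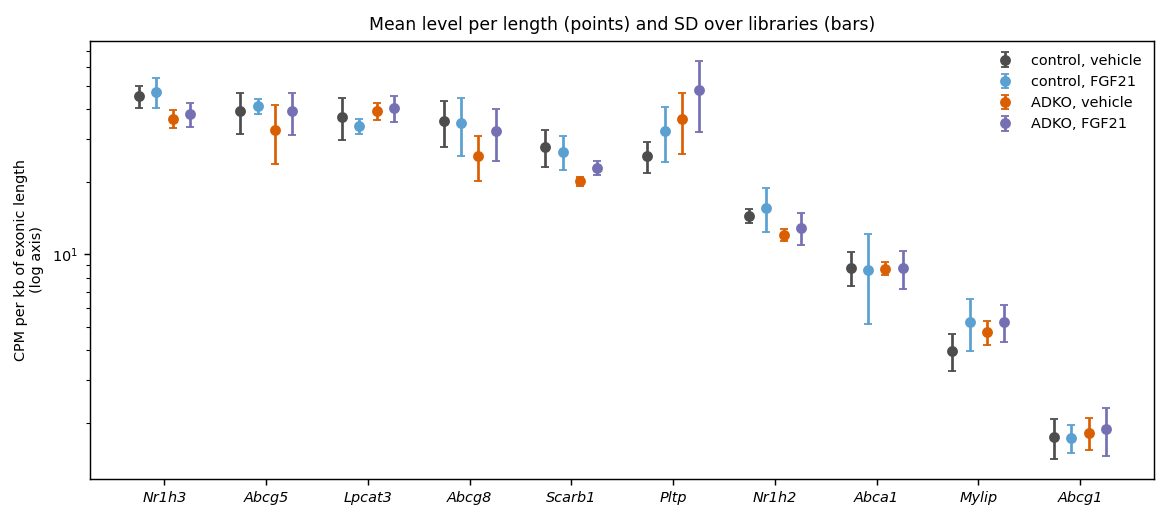
Mean CPM per kb of exonic length (log axis) of the 10 genes in the 4 groups, ordered by vehicle-treated controls; bars are SD over 7, 3, 6, and 8 libraries. Abcg1 lies lowest in every group, at 1.73 to 1.88 CPM per kb.

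The first question was how lipodystrophy changed these genes in liver without FGF21. With vehicle, 0 of the 10 genes met both thresholds, an edgeR adjusted p under 0.05 and a change of more than 1.5-fold (hereafter, called), against 8.48% of all genes. Without the fold limit, 2 of 10 passed, Scarb1 and Nr1h3, against 15.1% of all genes and 24.5% of the 12661 genes whose average log2 CPM reached 0, as it did for all 10 here. Both were lower in LmnaADKO mice, a direction in which 6.76% of all genes passed. At an unadjusted p under 0.05 there were 5 of 10 genes, against 27% of all genes. DESeq2 put 4 of 10 under an adjusted p of 0.05, for which its share of all genes was not counted. With the fold limit, DESeq2 called 0 of 10, against 2152 of the 16989 genes it tested. The median log2 fold change of the 10 genes was -0.14, and that of all genes was 0.0027. The 95% interval stayed within 1.5-fold for 7 genes and within 2-fold for all 10. An adjusted p above the threshold does not show that a gene was the same in both groups.

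Scarb1 encodes SR-BI, the receptor through which hepatocytes take cholesteryl esters from HDL. It lies at chr5:125277087-125341094 (GRCm38). Vehicle-treated controls ran from 186 to 295 CPM with a median of 236, and vehicle-treated LmnaADKO mice ran from 160 to 182 CPM with a median of 168. All 6 LmnaADKO libraries were below all 7 controls. The log2 fold change was -0.48 (SE 0.107, adjusted p = 0.0025). Without the 3 libraries in which long genes read low it was -0.41 (adjusted p = 0.00264), and with the number series as a covariate -0.48 (adjusted p = 0.0177). FGF21-treated controls were at 211, 268, and 200 CPM, and FGF21-treated LmnaADKO mice ran from 165 to 209 CPM with a median of 195, of which 5 of 8 were below all 3 controls. This difference was -0.22 (SE 0.128, adjusted p = 0.395) on the log2 scale, and -0.085 without library 2 of the FGF21-treated controls (adjusted p = 0.798). Within LmnaADKO mice, 7 of 8 FGF21-treated libraries were above all 6 vehicle-treated libraries, with a log2 fold change of 0.18 (SE 0.104, adjusted p = 0.725). The 8 hepatocyte markers had 0 at 0 in a whole group. Their summed medians were 113800 CPM in vehicle-treated controls and 91010 CPM in vehicle-treated LmnaADKO mice, with overlapping ranges. Alb made up most of this sum, with an average log2 CPM of 16.3 against 12.9 for Ttr, the next marker. The 8 markers did not move together. In this contrast 3 were positive, 1 was higher at an adjusted p under 0.05, and 2 were called lower, where 8.48% of all genes were called. Their part in the Scarb1 difference was not tested. In bulk tissue, fewer cells of a type and less RNA per cell cannot be told apart.

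Nr1h3, at chr2:91184061-91202834, was also lower. Vehicle-treated controls ran from 91.0 to 128 CPM with a median of 113, and vehicle-treated LmnaADKO mice from 80.2 to 99.7 CPM with a median of 93.8. The groups overlapped through library 6 of the controls, the lowest of its group, and 3 of 6 LmnaADKO libraries were below all controls. The log2 fold change was -0.31 (SE 0.0997, adjusted p = 0.033). The adjusted p rose above 0.05 on leaving out library 2, 3, or 6 of the LmnaADKO mice (0.0738, 0.086, and 0.0564). It also did without library 2, 3, 5, or 7 of the controls (0.0552, 0.0519, 0.0734, and 0.0667). With the number series as a covariate, the adjusted p was 0.0653. With FGF21, controls were at 102.1, 118, and 136 CPM, and LmnaADKO mice ran from 74.4 to 108 CPM with a median of 97.5. All 8 LmnaADKO libraries were below the median of these controls, and the log2 fold change was -0.31 (SE 0.119, adjusted p = 0.163), which was -0.20 without library 3 of the controls (adjusted p = 0.57).

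Nr1h2, at chr7:44549616-44553951, gave an estimate of similar size. Vehicle-treated controls ran from 43.6 to 54.0 CPM with a median of 48.0, and LmnaADKO mice from 37.6 to 43.8 CPM with a median of 39.7. Of 6 LmnaADKO libraries, 5 were below all 7 controls. The log2 fold change was -0.26 (SE 0.0997, adjusted p = 0.0775), above the threshold. It passed with the length slope as a covariate (adjusted p = 0.00163) and without the 3 libraries in which long genes read low (adjusted p = 0.0233). With FGF21, controls were at 41.9, 51.4, and 63.5 CPM and LmnaADKO mice ran from 36.0 to 57.8 CPM with a median of 42.1, a log2 difference of -0.28 (SE 0.119, adjusted p = 0.212). The highest library of each of these groups was 1 of the 3 in which long genes read low. Without library 7 of the LmnaADKO mice, the difference was -0.36 (adjusted p = 0.0281), and without library 3 of the controls it was -0.12 (adjusted p = 0.713). Without the 3 libraries, it was -0.18 (adjusted p = 0.39). The log2 ratio of Nr1h3 to Nr1h2 averaged 1.23 ± 0.147 in vehicle-treated controls and 1.18 ± 0.145 in vehicle-treated LmnaADKO mice (SD, n = 7 and 6), within the spread.

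**Figure D2:**
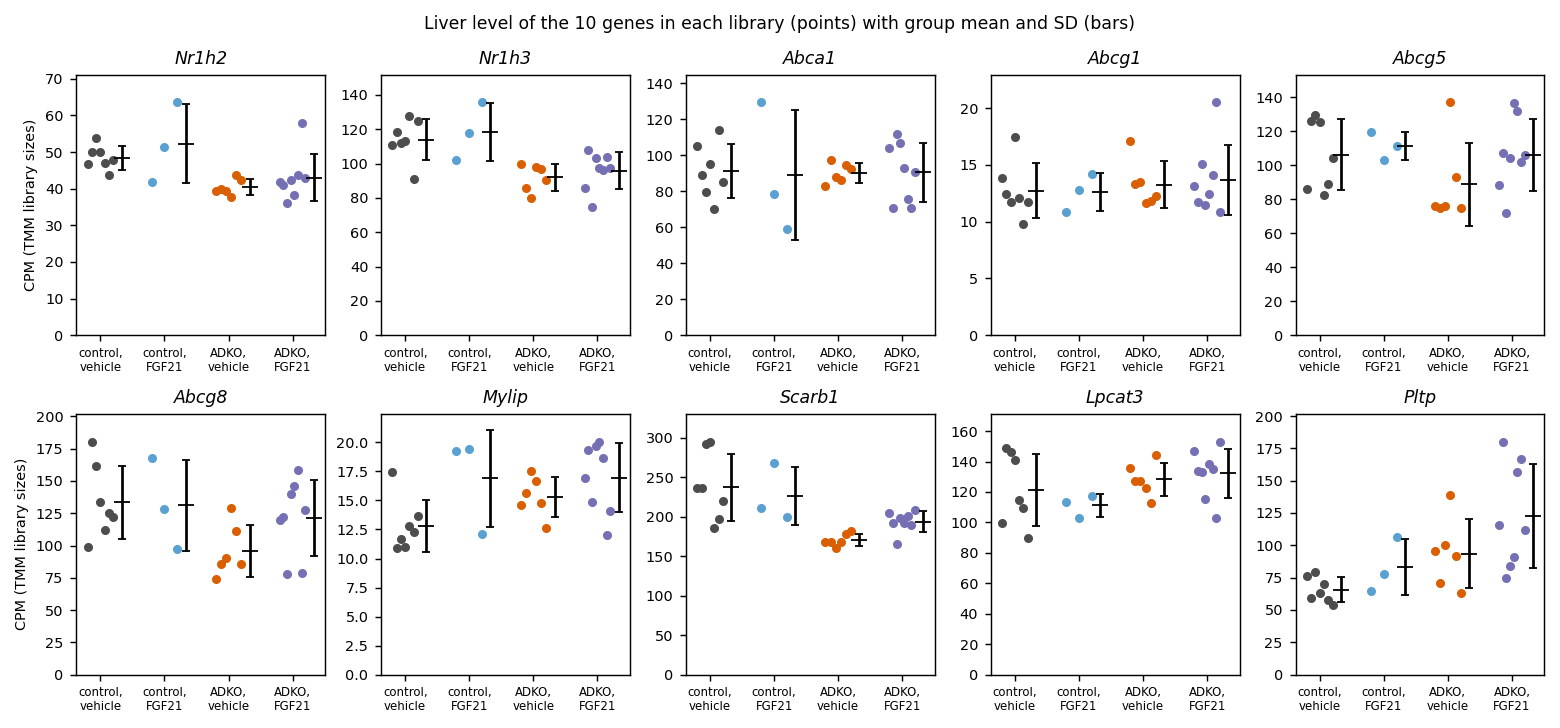
CPM of each of the 10 genes in each of 24 libraries by group, on axes from 0; points are libraries and bars the mean and SD. The 6 vehicle-treated LmnaADKO libraries of Scarb1 sit between 160 and 182 CPM, below all 7 vehicle-treated controls, whereas Abca1 and Abcg1 overlap throughout.

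Abcg5 and Abcg8 encode the half-transporters that together pump cholesterol and plant sterols into bile. Abcg5 lies at chr17:84658234-84683011 on the minus strand and Abcg8 at chr17:84676302-84700333 on the plus strand. The annotated genes overlap, and reads of the shared stretch cannot be assigned without strand, which the libraries marked but whose use in counting is not given in the sources used here. Abcg8 ran from 98.7 to 180 CPM in vehicle-treated controls with a median of 125, and from 74.4 to 129 CPM in LmnaADKO mice with a median of 87.9. Of 6 LmnaADKO libraries, 4 were below all controls, and the log2 fold change was -0.48 (SE 0.174, adjusted p = 0.0641). Abcg5 ran from 82.3 to 130 CPM in controls with a median of 104, and from 74.9 to 137 CPM in LmnaADKO mice with a median of 76.2. Its highest LmnaADKO library, number 4, was above all controls while 4 of 6 were below all of them, and the log2 fold change was -0.26 (SE 0.154, adjusted p = 0.29). Without library 4, it was -0.43 (adjusted p = 0.0405), and Abcg8 was at -0.58 (adjusted p = 0.0256). Without library 1 of the controls, Abcg8 was at -0.54 (adjusted p = 0.0396).

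With FGF21, Abcg5 was at 120, 103, and 112 CPM in controls and ran from 72.2 to 137 CPM in LmnaADKO mice with a median of 105. Abcg8 was at 168, 128, and 97.1 CPM in controls and ran from 77.7 to 158 CPM in LmnaADKO mice with a median of 125. The ranges overlapped for both genes, with log2 fold changes of -0.07 (SE 0.186) and -0.11 (SE 0.209). Between vehicle and FGF21 within LmnaADKO mice, the estimates were 0.26 (SE 0.149, adjusted p = 0.725) for Abcg5 and 0.34 (SE 0.169, adjusted p = 0.704) for Abcg8. Across libraries, the 2 genes varied together, with a within-group Pearson r of 0.764 over 24 libraries and 0.855 without the 3 libraries in which long genes read low. Abcg8 was the gene nearest to Abcg5 in pattern among 12492 genes compared. All points share library, depth, and the overlap of the genes.

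**Figure D3:**
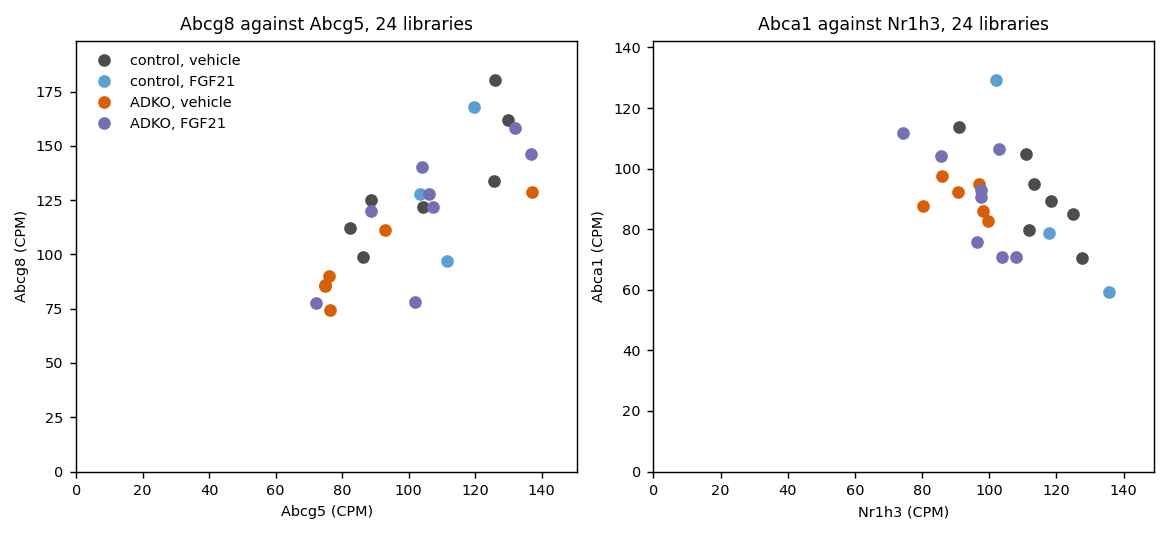
CPM of Abcg8 against Abcg5 (left) and of Abca1 against Nr1h3 (right) in 24 libraries, colored by group, on axes from 0. Abcg8 is high where Abcg5 is high (within-group r = 0.764 on log2 CPM), and Abca1 is low where Nr1h3 is high (r = -0.732).

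Abca1 and Abcg1 encode transporters that load cellular cholesterol onto lipid-poor apolipoprotein A-I and onto HDL. Abca1, at chr4:53030787-53159895, ran from 70.4 to 114 CPM in vehicle-treated controls with a median of 89.2, and from 82.7 to 97.4 CPM in LmnaADKO mice with a median of 90.0. The LmnaADKO libraries lay wholly within the range of the controls. The log2 fold change was -0.02 with a 95% interval from -0.31 to 0.28 (adjusted p = 0.989). In FGF21-treated controls Abca1 was at 129, 78.7, and 59.3 CPM, the widest relative spread of any of the 10 genes in any group (CV 40.6%), and its lowest value was in library 3, in which long genes read low. FGF21-treated LmnaADKO mice ran from 70.9 to 112 CPM with a median of 91.9. Across libraries, Abca1 went against Nr1h3, with a within-group Pearson r of -0.732 over 24 libraries and -0.708 without the 3 libraries. This was not particular to Nr1h3. The values were -0.678 and -0.536 for Abca1 with Nr1h2, and -0.669 and -0.589 for Abca1 with Pltp. Abca1 has the longest exonic length of the 10 genes, 10.4 kb, and Nr1h3 the shortest, 2.52 kb. Leaving out those libraries does not remove differences in slope, since slopes from -0.1091 to 0.1275 stayed among the others. Abca1 was highest in the library with the highest slope in FGF21-treated LmnaADKO mice and in both control groups. It was not so in vehicle-treated LmnaADKO mice. The part of the length slope in these correlations was not tested.

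Abcg1, at chr17:31057675-31117988, ran from 9.82 to 17.5 CPM in vehicle-treated controls with a median of 12.1, and from 11.6 to 17.1 CPM in LmnaADKO mice with a median of 12.8. Its log2 fold change was 0.06 with a 95% interval from -0.22 to 0.34 (adjusted p = 0.838). FGF21-treated controls were at 10.8, 12.8, and 14.2 CPM, and FGF21-treated LmnaADKO mice ran from 10.9 to 20.5 CPM with a median of 12.8. The groups overlapped in every comparison. Abcg1 is also expressed by macrophages, and the 10 markers of lipid-associated and monocyte-derived macrophages, of which 0 were at 0 in a whole group, summed to 44.8 to 98.8 CPM in vehicle-treated controls and 144 to 310 CPM in vehicle-treated LmnaADKO mice. Spp1, which is also a cholangiocyte marker, made up much of this sum, at 23.3 to 45.3 CPM in controls and 78.7 to 186 CPM in LmnaADKO mice, and the 6 cholangiocyte markers, Spp1 included and 0 at 0 in a whole group, summed to 27.1 to 51.2 CPM and 85.8 to 196 CPM. The part of these cells in the Abcg1 values was not tested.

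Pltp encodes phospholipid transfer protein, which remodels HDL in plasma. It lies at chr2:164839518-164857711 and overlaps Ctsa on the other strand. Vehicle-treated controls ran from 53.9 to 79.1 CPM with a median of 62.9, and vehicle-treated LmnaADKO mice from 63.4 to 139 CPM with a median of 94.0. All 6 LmnaADKO libraries were above the median of the controls and 4 were above all of them. The log2 fold change was 0.51 (SE 0.197, adjusted p = 0.0827). FGF21-treated controls were at 64.8, 78.1, and 107 CPM, and FGF21-treated LmnaADKO mice ran from 75.0 to 180 CPM with a median of 114, of which 5 of 8 were above all 3 controls. This log2 fold change was 0.56 (SE 0.247, adjusted p = 0.24). With FGF21 against vehicle, the log2 estimates were 0.34 in controls (SE 0.241, adjusted p = 0.788) and 0.39 in LmnaADKO mice (SE 0.193, adjusted p = 0.704).

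The genes nearest to Pltp in pattern were C1qa, a complement gene of resident macrophages, with a within-group Pearson r of 0.842 over 24 libraries, and Marc1 with 0.832. Without the 3 libraries in which long genes read low, r was 0.813 for C1qa and 0.841 for Marc1. The 12 Kupffer cell markers, which include C1qa, had 0 at 0 in a whole group and summed to 1065 to 1454 CPM in vehicle-treated controls (median 1197) and 802 to 1294 CPM in vehicle-treated LmnaADKO mice (median 1004). The macrophage sum given above was higher in LmnaADKO mice, and 8 stellate cell markers, 0 at 0 in a whole group, summed to 227 to 325 CPM in controls and 304 to 448 CPM in LmnaADKO mice. The part of these cells in the Pltp values was not tested.

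Mylip encodes the ubiquitin ligase IDOL, which acts in cholesterol uptake. It lies at chr13:45389742-45412022. Vehicle-treated controls ran from 10.9 to 17.4 CPM with a median of 12.3, and vehicle-treated LmnaADKO mice from 12.6 to 17.6 CPM with a median of 15.3. All 6 LmnaADKO libraries were above the median of the controls, and the log2 fold change was 0.26 (SE 0.133, adjusted p = 0.218). FGF21-treated controls were at 19.3, 19.4, and 12.1 CPM, 2 of them above all vehicle-treated controls, and FGF21 against vehicle in controls gave 0.40 (SE 0.163, adjusted p = 0.753). FGF21-treated LmnaADKO mice ran from 12.04 to 20.1 CPM with a median of 17.8.

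Lpcat3 encodes the acyltransferase that puts polyunsaturated chains into phospholipids. It lies at chr6:124663027-124704418 and overlaps Emg1 on the other strand. Vehicle-treated controls ran from 90.0 to 149 CPM with a median of 115, and LmnaADKO mice from 113 to 144 CPM with a median of 127, wholly within the range of the controls. The log2 fold change was 0.08 with a 95% interval from -0.16 to 0.32 (adjusted p = 0.72). FGF21-treated controls were at 114, 103, and 117 CPM and LmnaADKO mice ran from 103 to 153 CPM with a median of 134. Of the 8 LmnaADKO libraries, 6 were above all 3 controls, with a log2 fold change of 0.25 (SE 0.142, adjusted p = 0.391).

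The same contrast was then made in FGF21-treated mice, and FGF21 was set against vehicle in each genotype. With FGF21, 0 of the 10 genes passed in LmnaADKO mice against controls at any fold change, where 3.85% of all genes passed, and 0 with the fold limit, where 2.88% did. At an unadjusted p under 0.05 there were 3 of 10 genes, against 16.9% of all genes, and DESeq2 put 0 under an adjusted p of 0.05. FGF21 against vehicle in controls also gave 0 of 10 genes, against 0.0542% of all genes, with 1 gene, Mylip, under an unadjusted p of 0.05 (6.16% of all genes) and 0 by DESeq2. In LmnaADKO mice it gave 0 of 10 genes, against 0% of all genes, with 0 under an unadjusted p of 0.05 (6.71% of all genes) and 0 by DESeq2. There, all 10 edgeR estimates were positive, from 0.01 to 0.39 on the log2 scale with a median of 0.12, against a median of 0.0038 over all genes, and the smallest adjusted p was 0.704. In the same contrast, 7 of 8 hepatocyte markers were positive, with a median of 0.32, and 5 of 5 erythroid markers, with 1.39. Medians were also positive for Kupffer cell (9 of 12, 0.16), sinusoidal endothelial cell (5 of 8, 0.03), and lymphocyte markers (4 of 8, 0.21). They were negative for markers of lipid-associated and monocyte-derived macrophages (1 of 10, -0.31) and stellate cells (2 of 8, -0.11). The same held for cholangiocytes (2 of 6, -0.05) and adipocytes (1 of 5, -0.80). In each list 0 markers were called, and their part in the common sign was not tested. Among the 10 genes, the estimates of Abca1 and Abcg1 turned negative under other settings. For the interaction of genotype and treatment, 0 of 10 genes passed, against 0.00417% of all genes, with 0 under an unadjusted p of 0.05 (4.86% of all genes) and 0 by DESeq2, and the interval stayed within 2-fold for all 10. These comparisons share groups with each other, so their values are not independent.

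**Figure D4:**
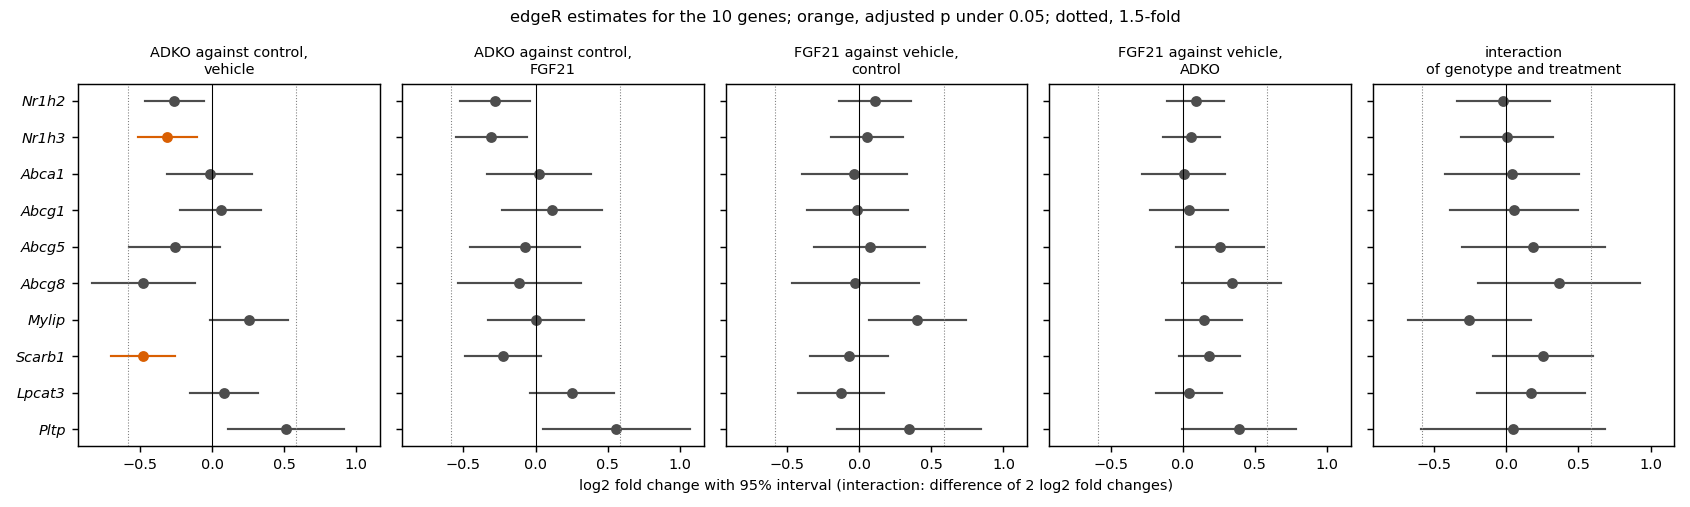
Log2 fold change (points) and 95% interval (lines) of the 10 genes in 5 comparisons by edgeR over 24 libraries; orange marks an adjusted p under 0.05 and dotted lines mark 1.5-fold. The orange genes are Scarb1 at -0.48 and Nr1h3 at -0.31 in the vehicle comparison, and the widest interval belongs to Pltp.

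Other genes of sterol handling were listed by function for the contrast of genotypes, in which 8.48% of all genes were called with vehicle and 2.88% with FGF21. With vehicle, 7 of 13 genes of the SREBP2 arm, which makes and takes up cholesterol, were called and all 7 rose. Among them were Hmgcs1 at 1.60 (SE 0.261), Insig2 at 1.202 (SE 0.212), Mvd at 1.68 (SE 0.29), and Lss at 0.78 (SE 0.173) on the log2 scale. The list median was 0.96, and with FGF21 again 7 of 13 rose, with a median of 1.42. Of 27 genes of HDL and cholesterol transport, 4 rose and 5 fell with vehicle, including Apom, an HDL apolipoprotein, at -1.64 (SE 0.148), Lipc, hepatic lipase, at -1.38 (SE 0.157), Apoa4 at 3.83 (SE 0.541), and the lysosomal lipase Lipa at 0.74 (SE 0.121). Apoa1, the main HDL apolipoprotein, was at -0.36 (SE 0.254, adjusted p = 0.393).

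Among 22 other LXR targets, 4 rose and 1 fell with vehicle. The fatty acid enzymes Scd1 and Elovl5 rose by log2 values of 3.00 (SE 0.561) and 1.47 (SE 0.166), Tnfaip3 rose by 1.13 (SE 0.214), and Mlxipl, a carbohydrate-responsive factor, fell by 0.95 (SE 0.13). Srebf1, a classical LXR target, was at 0.04 (SE 0.139, adjusted p = 0.924). Of 15 partners and coregulators, 0 rose and Ttc39b, whose product is known to bind LXR, fell by 0.71 (SE 0.158), and Rxra was at -0.36 (SE 0.11, adjusted p = 0.027), under the fold limit. Of 14 genes of oxysterol synthesis and removal, 4 rose and 1 fell, of which Ch25h lay at 0 to 0.463 CPM with vehicle, near the level of 3 counts. Of 12 acyltransferases of the LPCAT and MBOAT families, Mboat1 alone was called, at 1.31 (SE 0.409) and below 0.5 CPM. The shares called among the partners and coregulators and among the acyltransferases, 1 of 15 and 1 of 12, are near that of all genes. Of 12 ABCA and ABCG relatives, Abcg2 rose by 1.74 (SE 0.164), Abca5 rose by 0.91 (SE 0.162), and Abca8a fell by 1.33 (SE 0.194). With FGF21, the counts called were 3 of 22, 0 of 15, 2 of 14, 0 of 12, and 3 of 12 in these 5 lists, and 7 of 27 in HDL and cholesterol transport, against 2.88% of all genes.

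**Figure D5:**
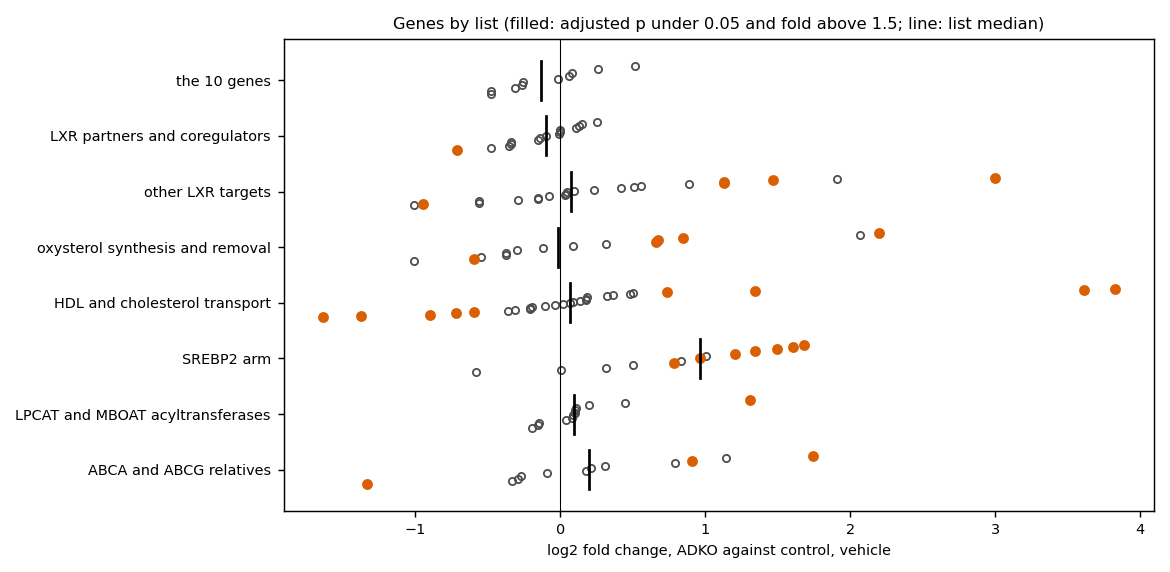
Log2 fold change in vehicle-treated LmnaADKO mice against controls for each gene of 8 lists; filled points met both thresholds (adjusted p and 1.5-fold), and lines are list medians. The 10 genes lie between -0.48 and 0.51 with 0 filled, and the SREBP2 arm has a median of 0.96 with 7 of 13 filled.

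Genes with the most similar pattern across the 24 libraries, after group means were removed, are given as description. They were Mospd3 (r = 0.913) for Nr1h2, Mrm2 (r = 0.85) for Nr1h3, Fam135a (r = 0.92) for Abca1, Csrp1 (r = 0.87) for Abcg1, Calcoco1 (r = 0.825) for Abcg8, Kdr (r = 0.825) for Mylip, Bora (r = 0.705) for Scarb1, and Nek8 (r = 0.718) for Lpcat3. Without the 3 libraries in which long genes read low, r fell to 0.767 for Nr1h2 and Mospd3 and to 0.711 for Mylip and Kdr, and was 0.914 for Abca1 and Fam135a. The second nearest genes were Dynlrb1, Tm2d2, Sec16a, Uap1l1, Gm34667, Tmem183a, Tmem38b, Ctsl, Jun, and Marc1 for Nr1h2, Nr1h3, Abca1, Abcg1, Abcg5, Abcg8, Mylip, Scarb1, Lpcat3, and Pltp.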

How the data were processed

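Livers of 24 female mice were profiled by polyA-selected, strand-marked RNA-Seq. The authors deposited whole-number counts per gene without normalization. The submitters' processing notes name GRCm38, cutadapt 4.8, FastQC 0.11.8, STAR 2.7.8a, and RSEM 1.3.3 without roles, so the counts may be rounded estimates. Groups came from the library labels, whose titles hold a number that was read as the animal number. Libraries are numbered within each group.

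Counts of all 23972 genes and 24 libraries were scaled by TMM and fitted together with edgeR 4.0.16 in R 4.3.3 (estimateDisp, robust glmQLFit, glmQLFTest, no covariate), with Benjamini-Hochberg adjustment over all genes. Standard errors are the absolute log2 fold change over the square root of F. Genes were located through GENCODE M21, which holds 23926 of them. The tests were checked on simulated data. Alternatives were DESeq2 1.42.0, DESeq2 size factors in edgeR, the filterByExpr filter, only the groups compared, the animal number series, only libraries with 4-digit numbers, no fold limit, and leaving out each library. The slope of log2 CPM on exonic length as a covariate, and leaving out the 3 libraries with the most negative slopes, were added after seeing the data. Besides the 10 genes, the text names up to 4 called genes per list and comparison by smallest adjusted p, Srebf1, Rxra, Apoa1, and Lmna by name (a further gene set by name is not reported here), Fgf21, and the 2 genes most correlated with each of the 10. The genes and lists were chosen with earlier results of these data known.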

Additional observations from a re-analysis of the deposited data

Results flagged for a closer look

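In groups of 6 to 8 libraries, 6 values among 30 groups of values stood apart by Dixon's 95% criterion, which chance meets in about 1 in 20 groups. Nr1h2 was 57.8 CPM in library 7 of FGF21-treated LmnaADKO mice, against 43.8 CPM in the next library. Abcg1 was 20.5 CPM in the same library, against 15.1 CPM in the next. In that library long genes read low relative to short genes, with a slope of -0.331 log2 CPM per log2 of exonic length. Nr1h2 has an exonic length of 3.35 kb and Abcg1, which read high there, one of 7.30 kb. The part of the slope in these values was not tested. Abcg1 was also high in library 1 of vehicle-treated LmnaADKO mice at 17.1 CPM, against 13.5 CPM. Abcg5 was 137 CPM in library 4 of vehicle-treated LmnaADKO mice, against 93.0 CPM. Mylip was 17.4 CPM in library 1 of vehicle-treated controls, against 13.7 CPM. Scarb1 was low in library 3 of FGF21-treated LmnaADKO mice at 165 CPM, against 190 CPM.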

How the results depend on the processing

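No paired analysis was possible because the labels give the groups no shared replicate numbers. With the fold limit, 0 of the 10 genes were called in each of the 5 comparisons under every alternative run, and 2 with vehicle when the limit was dropped. With vehicle, genes under an adjusted p of 0.05 numbered 4 with DESeq2 and 4 with filterByExpr (Abcg8, Nr1h2, Nr1h3, Scarb1), 5 with only the groups compared (Pltp added), 1 with the number series (Scarb1), and 4 with the length slope (Nr1h2, Nr1h3, Pltp, Scarb1), against 2. Leaving out 1 library gave 1 to 4, and Scarb1 passed in each of these fits. With FGF21, leaving out 1 library gave 0 to 1, and the length slope gave 1 (Nr1h2). For these settings, the share of all genes under an adjusted p of 0.05 was not counted. With vehicle and the fold limit, 2033 of 23972 genes were called by edgeR without a covariate and 2152 of 16989 by DESeq2. They were 1991 of 14699 with filterByExpr, 2188 of 23972 with only the groups compared, and 2363 of 23972 with the length slope. With the number series they were 1604 of 23972. Why the counts among the 10 genes moved was not tested.

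Signs turned often, and 28 of the 50 log2 estimates were smaller than their SE. With vehicle, Abca1 turned to 0.081 with the number series, and ranged from -0.069 to 0.045 on leaving out 1 library, as Abcg1 did from -0.026 to 0.15. In FGF21-treated LmnaADKO mice against controls, Abca1 turned to -0.0497 with the number series, -0.12 with 4-digit libraries, and -0.15 without the 3 libraries in which long genes read low. Abcg5 turned to 0.043 and 0.082 with the first pair of these settings. Mylip turned to -0.013 with DESeq2, -0.013 with its size factors, -0.0038 with filterByExpr, -0.0049 with only the groups compared, -0.011 with the number series, -0.077 with 4-digit libraries, -0.022 with the length slope, and -0.13 without the 3 libraries. Leaving out 1 library, Abca1 ranged from -0.20 to 0.39, Abcg8 from -0.29 to 0.11, and Mylip from -0.19 to 0.11.

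For FGF21 against vehicle in controls, the length slope turned Nr1h2 to -0.0020, Nr1h3 to -0.019, Abca1 to 0.059, and Abcg8 to 0.0096. Without the 3 libraries, these were -0.028, -0.059, 0.16, and 0.20, and Scarb1 was 0.068. The number series turned Abca1 to 0.084, Abcg1 to 0.034, and Abcg5 to -0.14, and DESeq2 and its size factors turned Abcg1 to 0.00033 and 0.00069. Leaving out 1 library, the ranges were -0.056 to 0.25 for Nr1h2, -0.054 to 0.15 for Nr1h3, -0.40 to 0.19 for Abca1, -0.11 to 0.087 for Abcg1, -0.24 to 0.15 for Abcg8, and -0.21 to 0.011 for Scarb1.

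For FGF21 against vehicle in LmnaADKO mice, Abca1 turned to -0.047 with the number series and -0.15 with 4-digit libraries, and Abcg1 to -0.012 with the length slope and -0.066 without the 3 libraries. Leaving out 1 library, they ranged from -0.045 to 0.0502 and from -0.0602 to 0.13. For the interaction, Nr1h2 turned to 0.10 with the number series, 0.033 with the length slope, and 0.042 without the 3 libraries. Nr1h3 turned to -0.012 with DESeq2, -0.012 with its size factors, and -0.00031 with filterByExpr. Abca1 turned to -0.13 with the number series and -0.11 without the 3 libraries, and Abcg1 to -0.0047 with the number series. Leaving out 1 library, the ranges were -0.16 to 0.15 for Nr1h2, -0.093 to 0.11 for Nr1h3, -0.18 to 0.41 for Abca1, -0.052 to 0.15 for Abcg1, and -0.10 to 0.27 for Pltp.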
